A study of Mus musculus with 4 samples.

Results

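The interferon response and innate sensing genes form a set of 41 named genes that cells use to detect infection and to answer interferon. They were found among the probe sets of the array that carry 1 gene symbol only, and the probe sets of a gene were averaged. By this rule 38 of the 41 genes were measured, with 42 probe sets, among 19938 genes in all. Isg15 had only a probe set shared with another symbol, and Nfkb1 and Ifi44 had no named probe set, so these 3 were not analysed here. Of the 38 genes, 10 are sensors and adaptors, 8 are transcription factors, 4 are receptor chains and 16 are effectors that interferon induces.

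Total RNA of 4 mouse cell samples was hybridised to 1-colour Affymetrix arrays, 1 array per sample. The induced pluripotent stem (iPS) lines 492B4 and 178B5 had a mixed background of DBA/2, C57BL/6 and 129S4, the embryonic stem (ES) line v6.5 was an F1 of 129 and C57BL/6, and the mouse embryonic fibroblasts (MEF) had the same mixed background as the iPS lines. Strain therefore differed between ES and the other samples and cannot be told apart from cell type there. A mixed background need not hold the same alleles in each iPS line and in the MEF. Allele differences among these samples cannot be told apart from line or cell type either. The iPS and ES lines grew in serum medium on SNL feeder cells, which are fibroblasts that carried a puromycin resistance gene and had been treated with mitomycin C, and the MEF grew in serum medium without feeders being named. The labels name no agent that induces interferon, and they do not say how the iPS lines were reprogrammed or whether MEF or lines were pooled from several animals or clones.

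Innate sensors recognise molecules of microbes. Toll-like receptors (TLR) do so at the surface and in endosomes through the adaptor Myd88 among others, and cytosolic sensors of RNA and DNA signal through Mavs and Sting1. Their signals make cells secrete interferon, which binds the receptor chains Ifnar1 and Ifnar2 (type I) or Ifngr1 and Ifngr2 (type II) and acts through Stat and Irf factors on the interferon-stimulated response element (ISRE) and on gamma-activated sites (GAS). Pluripotent stem cells are known for a weak interferon response, and some antiviral genes are known to be active in them without interferon.

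The table held differences between arrays on a log scale, read here as log2, and no expression levels. Each probe set was centred on its median over the 4 arrays, so where the 3 lines lie close together their values are near 0 and MEF stands apart. Column medians lay between -0.0250 and 0.0419. The cell labels were checked against markers. Of 20 pluripotency markers, 20 were higher on all 3 lines than on MEF, with a median difference of 4.94 log2, and of 26 fibroblast markers, 26 were lower on all 3 lines, with a median of -3.65 log2. The sum of the fibroblast markers was -25.2 log2 on 492B4, -18.4 on 178B5, 16.0 on ES and 87.2 on MEF. Since feeder cells are fibroblasts too, the part of feeder RNA in any value was not tested. For macrophage markers 14 of 19 were lower on all 3 lines than on MEF, with sums of -1.41 log2 on 492B4, -1.53 on 178B5, 1.32 on ES and 2.19 on MEF, and 0 of 19 were called lower and 1 higher.

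The first comparison asked how the set differs between pluripotent cells and fibroblasts. Most of the changes were falls, in surface and cytosolic sensors, in Irf2, in all 4 receptor chains and in Ifit2 and Ifit3. Against these, Ifitm1 rose by 3.70 log2 (SD 0.13, n = 3 lines) and Trim25 by 1.75 log2 (SD 0.22). A gene was called when limma's adjusted p was under 0.05 and the difference at least 1 log2, and 15 of the 38 genes were lower and 2 higher in the 3 lines, while 21 were not called. Among all 19938 genes 17.6% were called, 9.71% lower and 7.9% higher. In the set these shares were 39.5% and 5.26%. Lower calls were thus more frequent among its genes than in the whole table, and higher calls were not. The set was chosen with earlier results of these data known, so this excess cannot be told apart from the choice. The median difference of the set was -0.74 log2, beside -0.10 log2 over all genes. All 3 lines lay below MEF for 26 of the 38 genes, and above MEF for 9, against 47.7% and 30.1% of all genes. No test was made of the set as a whole. In bulk RNA, fewer cells of a type and less RNA per cell cannot be told apart.

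**Figure D1:**
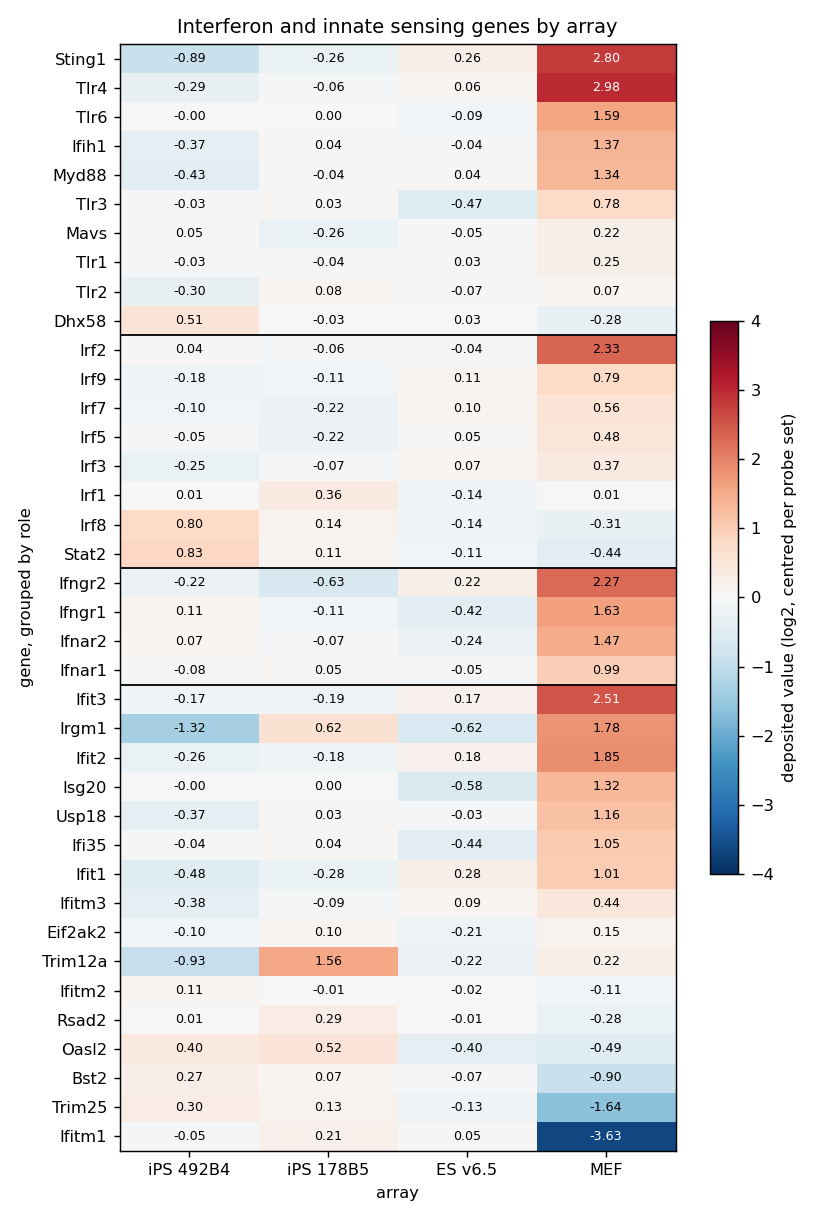
Deposited values (log2, centred per probe set, colour and printed number) of the 38 measured genes in rows, grouped by role, on the 4 arrays in columns. The MEF column holds both the highest values, such as 2.98 for Tlr4, and the lowest, -3.63 for Ifitm1, while the columns of the 3 lines are mostly near 0 apart from Irgm1, Trim12a and a few others.

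Without iPS 178B5 the number of the set's genes called was 7 (6 lower and 1 higher), and 1357 genes were called in the whole table against 3512 with all lines. Of the 17 genes called with all lines, 6 were called without 178B5 (Tlr4, Tlr6, Irf2, Ifngr2, Ifit3 and Ifitm1), 14 without 492B4 and 17 without ES. Of the set's 38 genes 18.4% were called without 178B5, 36.8% without 492B4 and 50% without ES, beside 6.81%, 16.0% and 21.1% of all genes. With the arrays centred on reference genes, the median of all genes moved by -0.21 log2, to -0.31 log2, and the set's median stood at -0.95 log2, with 18 genes lower and 2 higher. Of the 13 reference genes measured, 2 were themselves called higher and 1 lower, with differences between -1.53 and 2.77 log2, and 9 lay above MEF on all 3 lines. In the whole table that centring gave 1251 genes higher and 2664 lower, against 1576 and 1936 as deposited.

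Among the sensors, 5 of 10 fell and 0 rose, beside 9.71% and 7.9% of all genes, with a median difference of -1.21 log2. Tlr4, the receptor for bacterial lipopolysaccharide, had values of -0.29 on 492B4, -0.06 on 178B5 and 0.06 on ES, against 2.98 log2 on MEF. The 3 lines lay within 0.36 log2 of one another and MEF lay 2.91 log2 above the highest of them. The mean difference was -3.08 log2 (SD 0.18, n = 3 lines), or 8.43-fold higher on MEF, with limma's adjusted p at 0.00548. Sting1, the adaptor at the endoplasmic reticulum that answers cytosolic DNA, had values of -0.89 on 492B4, -0.26 on 178B5 and 0.26 on ES, against 2.80 log2 on MEF. It fell by 3.09 log2 (SD 0.57, adjusted p = 0.0167 by limma), and the lines were spread over 1.15 log2, with 492B4 lowest. Without 178B5 the adjusted p of Sting1 was 0.0611.

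Tlr6, which pairs with Tlr2 to recognise bacterial lipopeptides, had values of 0.00 on both iPS lines and -0.09 on ES, against 1.59 log2 on MEF. The lines were within 0.10 log2 of one another, and the fall was 1.62 log2 (SD 0.05). Tlr1, the other partner of Tlr2 and the direct neighbour of Tlr6 on chromosome 5, had values of -0.03, -0.04 and 0.03 on 492B4, 178B5 and ES and 0.25 log2 on MEF, and was not called (adjusted p = 0.247 by limma). Tlr2 itself, with -0.30 on 492B4, 0.08 on 178B5, -0.07 on ES and 0.07 on MEF, had MEF within the range of the lines. So of this receptor and its partners Tlr6 was the one called against MEF, while the difference between these 3 genes was not tested.

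Myd88, the adaptor shared by most TLR, had values of -0.43 on 492B4, -0.04 on 178B5 and 0.04 on ES, against 1.34 log2 on MEF. Ifih1, the cytosolic sensor of long double-stranded RNA also called MDA5, had -0.37, 0.04 and -0.04 on the same lines, against 1.37 log2 on MEF. Both were above all lines on MEF, by 1.30 and 1.33 log2 from the nearest line, and 492B4 was lowest for each. Myd88 fell by 1.48 log2 (SD 0.25, adjusted p = 0.0185 by limma) and Ifih1 by 1.49 log2 (SD 0.22, adjusted p = 0.0152). Without 178B5 neither was called (adjusted p = 0.0693 and 0.0551).

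Tlr3, the endosomal sensor of double-stranded RNA, had -0.03 on 492B4, 0.03 on 178B5, -0.47 on ES and 0.78 log2 on MEF. Its difference of -0.93 log2 was under the minimum of 1 log2 (adjusted p = 0.0635 by limma), and it was called with reference gene centring (-1.14 log2, adjusted p = 0.0221). Mavs, the mitochondrial adaptor of the RNA sensors, stood at -0.31 log2 (adjusted p = 0.292, 95% interval -0.79 to 0.18). Dhx58, also called LGP2, which modulates Ifih1, was above MEF on all lines at 0.46 log2 (adjusted p = 0.293, interval -0.26 to 1.17), with the highest value, 0.51 log2, on 492B4. These intervals leave room for changes in either direction.

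Of the 8 transcription factors 1 fell and 0 rose, a share of 12.5%, beside 17.6% of all genes called and 9.71% called lower. A single gene makes this share, so no difference from all genes is read from it. Irf2, which competes with Irf1 for the ISRE and is known mainly as a repressor, had values of 0.04 on 492B4, -0.06 on 178B5 and -0.04 on ES, against 2.33 log2 on MEF. The lines agreed within 0.09 log2, the fall was 2.35 log2 (SD 0.05, adjusted p = 0.00548 by limma), and it was called in all 10 alternative settings that were run. Irf1, an activator at the same element, had a mean difference of 0.06 log2 (adjusted p = 0.881), but its probe sets disagreed, with 0.32 log2 for one and -0.19 log2 for the other, and the mean turned to -0.15 log2 with reference gene centring. Irf9, the DNA-binding part of the complex that type I interferon activates, was below MEF on all 3 lines at -0.85 log2. Its adjusted p was 0.0344 by limma, but the difference was under 1 log2 except with reference gene centring (-1.06 log2, adjusted p = 0.0213). Stat2, a partner of Irf9 in that complex, lay above MEF on all lines, with 0.83 on 492B4, 0.11 on 178B5, -0.11 on ES and -0.44 log2 on MEF, and was not called (0.71 log2, adjusted p = 0.28). Irf8, a factor of myeloid cells, was placed in the same way, with 0.80 on 492B4, 0.14 on 178B5, -0.14 on ES and -0.31 log2 on MEF (adjusted p = 0.365). Irf3 (-0.45 log2), Irf5 (-0.56 log2) and Irf7 (-0.64 log2), which switch on interferon genes, were below MEF on all 3 lines and were not called, with adjusted p of 0.156, 0.0866 and 0.0757 by limma.

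All 4 receptor chains fell, beside 9.71% of all genes, with differences between -2.48 and -1.02 log2. Ifngr2, the signalling chain of the type II receptor, had values of -0.22 on 492B4, -0.63 on 178B5 and 0.22 on ES, against 2.27 log2 on MEF. It fell by 2.48 log2 (SD 0.43, adjusted p = 0.0153 by limma), and MEF was 2.05 log2 above the nearest line, which was ES. For Ifngr1, the chain that binds interferon gamma, the values were 0.11 on 492B4, -0.11 on 178B5 and -0.42 on ES, against 1.63 log2 on MEF. Here ES was lowest, and the fall was 1.77 log2 (SD 0.27, adjusted p = 0.0144).

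Ifnar2 and Ifnar1, the chains of the type I receptor, had smaller differences. Ifnar2 had values of 0.07 on 492B4, -0.07 on 178B5 and -0.24 on ES, against 1.47 log2 on MEF, a fall of 1.55 log2 (SD 0.15, adjusted p = 0.0102 by limma). Ifnar1 had -0.08 on 492B4, 0.05 on 178B5 and -0.05 on ES, against 0.99 log2 on MEF, a fall of 1.02 log2 (SD 0.07, adjusted p = 0.0146). Ifnar1 sat at the fold minimum and stood at -0.95 log2 with equal array medians, -0.99 log2 without 492B4 and -1.06 log2 (adjusted p = 0.0737) without 178B5, so it was not called in those 3 settings. Without 178B5, Ifnar2 (adjusted p = 0.055) and Ifngr1 (0.062) were not called either. Ifnar2, Ifnar1 and Ifngr2 lie side by side on chromosome 16 in the RefSeq gene order, with only Il10rb between the first and the second. Il10rb, a chain shared by the receptors for interleukin-10 and lambda interferons, fell as well, with -0.18 on 492B4, 0.18 on 178B5 and -0.51 on ES, against 2.30 log2 on MEF (-2.47 log2, adjusted p = 0.0112).

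**Figure D2:**
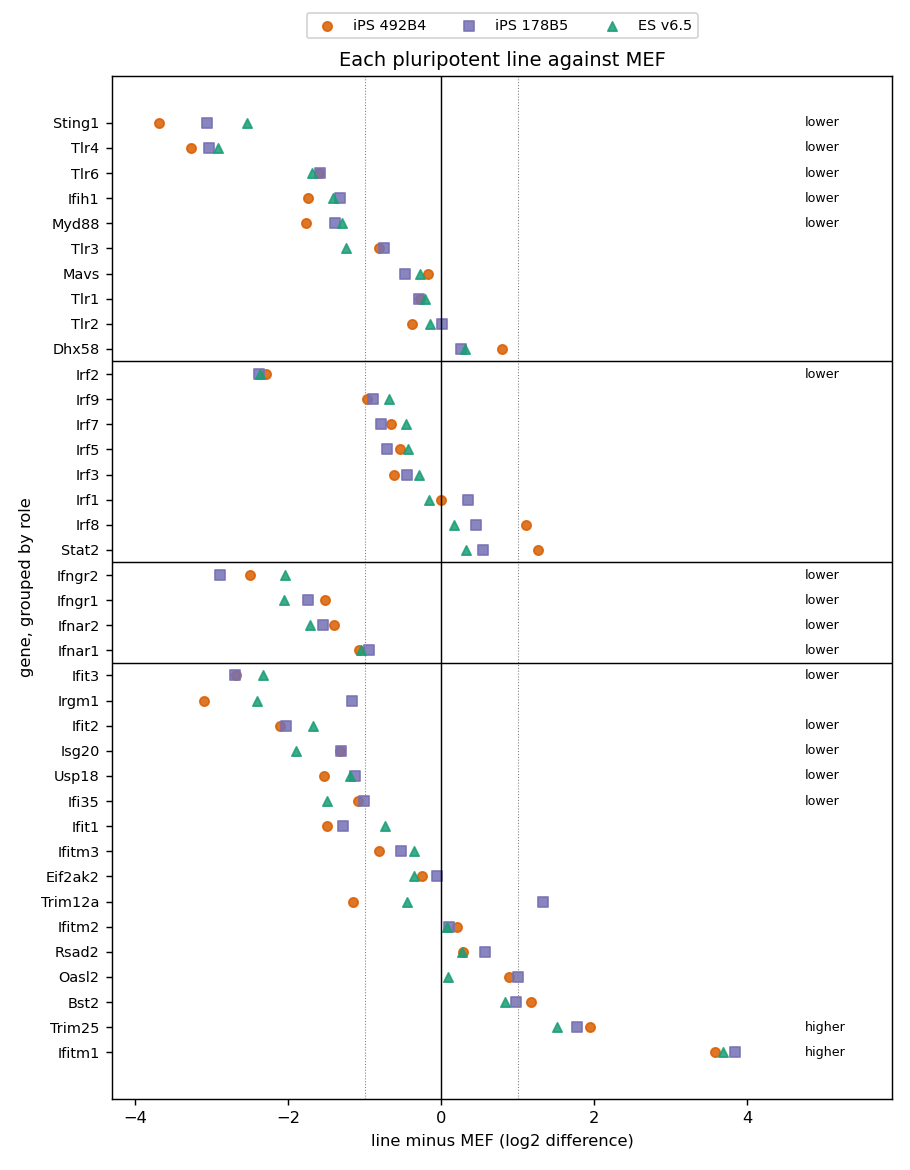
Log2 difference from MEF of each pluripotent line (points: iPS 492B4, iPS 178B5 and ES v6.5), 1 gene per row, grouped by role from sensors at the top to effectors at the bottom. Dotted lines mark 1 log2 either way, and "lower" or "higher" marks the 17 genes called; all 4 receptor chains lie left of 0 and Ifitm1 lies farthest to the right.

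Of the 16 effectors 5 fell and 2 rose, beside 9.71% and 7.9% of all genes, with a median of -0.39 log2. The promoters of some effectors are shown here because the effectors went different ways. Windows of 300 bases, reaching 250 bases before the annotated start of the gene, come from RefSeq on build GRCm38.p6. Capitals mark matches to the ISRE letters GAAANNGAAA on either strand, and overlapping matches are counted singly. Ifit1, not called over the 3 lines, and Ifit3 were below MEF on every line, and Ifitm1 was the largest rise. Ifitm3 is the direct neighbour of Ifitm1 on chromosome 7, and Irgm1 differed between the iPS lines.
Ifit1, chr19:34640639-34640938, plus strand: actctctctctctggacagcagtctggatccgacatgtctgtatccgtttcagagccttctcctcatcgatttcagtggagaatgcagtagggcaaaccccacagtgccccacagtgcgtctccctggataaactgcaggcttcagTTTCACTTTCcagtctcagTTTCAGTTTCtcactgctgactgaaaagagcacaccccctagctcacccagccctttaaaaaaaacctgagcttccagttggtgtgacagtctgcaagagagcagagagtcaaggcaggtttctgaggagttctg
Ifit3, chr19:34583279-34583578, plus strand: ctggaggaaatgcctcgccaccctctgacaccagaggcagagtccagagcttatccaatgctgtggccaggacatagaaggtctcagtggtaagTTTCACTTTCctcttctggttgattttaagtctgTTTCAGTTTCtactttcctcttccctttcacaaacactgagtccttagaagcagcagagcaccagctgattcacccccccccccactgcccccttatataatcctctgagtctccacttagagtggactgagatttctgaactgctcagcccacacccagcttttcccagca
Ifitm1, chr7:140967826-140968125, plus strand: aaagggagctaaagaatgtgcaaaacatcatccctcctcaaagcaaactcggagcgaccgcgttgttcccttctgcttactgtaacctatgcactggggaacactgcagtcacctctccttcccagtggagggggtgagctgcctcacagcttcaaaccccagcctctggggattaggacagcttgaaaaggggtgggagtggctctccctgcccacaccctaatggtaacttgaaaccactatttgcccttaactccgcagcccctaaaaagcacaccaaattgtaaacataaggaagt
Ifitm3, chr7:141010695-141010994, minus strand: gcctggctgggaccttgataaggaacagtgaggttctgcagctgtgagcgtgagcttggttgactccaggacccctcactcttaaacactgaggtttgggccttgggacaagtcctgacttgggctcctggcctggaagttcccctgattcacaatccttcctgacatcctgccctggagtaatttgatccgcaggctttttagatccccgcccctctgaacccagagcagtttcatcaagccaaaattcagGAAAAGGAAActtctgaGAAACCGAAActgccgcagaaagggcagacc
Irgm1, chr11:48871371-48871670, minus strand: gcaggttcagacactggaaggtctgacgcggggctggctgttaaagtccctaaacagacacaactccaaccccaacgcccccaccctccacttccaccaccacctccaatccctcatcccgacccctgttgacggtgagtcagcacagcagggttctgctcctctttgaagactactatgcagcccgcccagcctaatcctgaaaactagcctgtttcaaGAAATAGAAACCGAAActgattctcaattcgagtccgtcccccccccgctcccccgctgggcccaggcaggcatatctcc

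The Ifit1 window held ISRE matches that begin 104 and 85 bases before the start, and the Ifit3 window held them 156 and 122 bases before it. In the Irgm1 window 2 overlapping matches began 30 and 24 bases before the start, and in the Ifitm3 window the matches began 2 and 19 bases after it. The Ifitm1 window held 0 matches, which says only that these letters are not in this window. Ifit2, Isg20 and Ifi35, effectors called lower and not shown, held 0 as well, while Bst2, above MEF on all 3 lines, held 2. RefSeq windows were found for 36 of the 41 genes, 34 of them measured, and a match occurred in 14 of the 34. By window the share was 34.1% of 44 windows, beside 3.44% of all 32851 promoter windows. By role it was 9 of 15 effectors, 3 of 7 sensors, 2 of 8 transcription factors and 0 of 4 receptor chains. A match occurred in 5 of the 12 genes called lower that have a window, in 0 of the 2 called higher and in 9 of the 20 not called, which is 41.7%, 0% and 45.0%. The palindromic GAS letters TTCCNGGAA were found in 3 of the 34 genes (Bst2, Ifit2 and Ifnar2). By window the share was 6.82% of 44 windows, beside 1.15% of all windows.

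**Figure D3:**
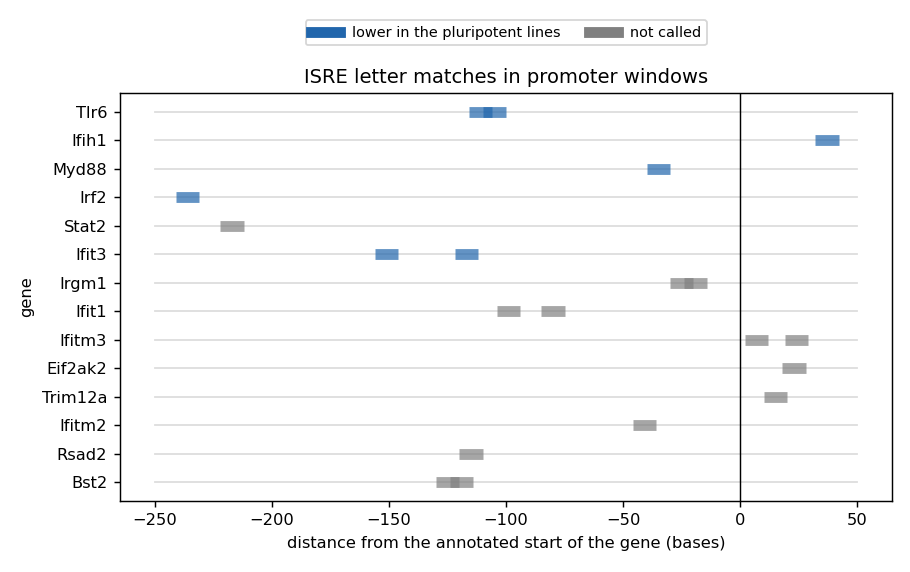
Positions of ISRE letter matches (bars, either strand) along the promoter windows of the 14 measured genes that hold one, as distance in bases from the annotated start. Blue bars belong to genes called lower in the pluripotent lines and grey bars to genes not called; both colours occur before and after the start.

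Among the Ifit genes, whose proteins bind viral RNA and block its translation, Ifit3 had values of -0.17 on 492B4, -0.19 on 178B5 and 0.17 on ES, against 2.51 log2 on MEF. The fall was 2.57 log2 (SD 0.20, adjusted p = 0.00596 by limma), or 5.94-fold higher on MEF. Ifit2, its direct neighbour on chromosome 19, had -0.26 on 492B4, -0.18 on 178B5 and 0.18 on ES, against 1.85 log2 on MEF, and fell by 1.94 log2 (SD 0.23, adjusted p = 0.0102). For Ifit1 the values were -0.48 on 492B4, -0.28 on 178B5 and 0.28 on ES, against 1.01 log2 on MEF. In all 3 genes the iPS lines were lowest, ES stood above them and MEF was highest. Ifit1 stood at -1.17 log2 and was not called over the 3 lines (SD 0.39, adjusted p = 0.074), and it was called without ES (-1.39 log2, adjusted p = 0.00879), with reference gene centring (-1.38 log2, adjusted p = 0.0394) and over only the genes above the median range (adjusted p = 0.0421). Ifit2 was not called without 178B5 (adjusted p = 0.0509).

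The Ifitm genes code for small membrane proteins that hinder virus entry. Ifitm1 had values of -0.05 on 492B4, 0.21 on 178B5 and 0.05 on ES, against -3.63 log2 on MEF. It was high on every line and low on MEF, 13.0-fold higher in the lines (adjusted p = 0.00479 by limma), and its probe sets gave 3.52 and 3.88 log2. Its neighbours on chromosome 7 did not share this. Ifitm3 was below MEF on all 3 lines, with -0.38 on 492B4, -0.09 on 178B5, 0.09 on ES and 0.44 log2 on MEF (-0.57 log2, adjusted p = 0.154, 95% interval -1.17 to 0.04). Ifitm2 differed by 0.13 log2 (adjusted p = 0.559, interval -0.25 to 0.52), and by -0.08 log2 with reference gene centring. Its probe sets ranged from -0.10 to 0.39 log2 and the Ifitm genes are close paralogues, so cross-hybridisation between them was not tested.

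Trim25, the ubiquitin ligase that acts on the RNA sensor RIG-I, had values of 0.30 on 492B4, 0.13 on 178B5 and -0.13 on ES, against -1.64 log2 on MEF. It was 3.35-fold higher in the lines (adjusted p = 0.0115 by limma), and was not called without 178B5 (1.73 log2, adjusted p = 0.0561). Bst2, or tetherin, which holds budding viruses at the cell surface, had 0.27 on 492B4, 0.07 on 178B5 and -0.07 on ES, against -0.90 log2 on MEF. All lines were above MEF, and with 0.99 log2 (adjusted p = 0.0279) Bst2 fell just short of the fold minimum. It passed with equal array medians (1.07 log2) and without ES (1.08 log2).

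Isg20, an exonuclease that degrades viral RNA, had values of 0.00 on both iPS lines and -0.58 on ES, against 1.32 log2 on MEF. Ifi35, a leucine zipper protein that interferon induces, had -0.04 on 492B4, 0.04 on 178B5 and -0.44 on ES, against 1.05 log2 on MEF. For these 2 genes ES was the lowest array, unlike in the Ifit genes. Isg20 fell by 1.51 log2 (SD 0.33, adjusted p = 0.0287 by limma) and Ifi35 by 1.20 log2 (SD 0.26, adjusted p = 0.0312). Neither was called without 178B5 (adjusted p = 0.075 and 0.0803) or without 492B4 (0.0507 and 0.0635). Usp18, which removes Isg15 from proteins and restrains the type I receptor, had -0.37 on 492B4, 0.03 on 178B5 and -0.03 on ES, against 1.16 log2 on MEF. It fell by 1.29 log2 (SD 0.22, adjusted p = 0.0204), and its adjusted p was 0.0678 without 178B5.

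The remaining effectors were not called over the 3 lines. Rsad2, the antiviral enzyme viperin, stood at 0.38 log2 (adjusted p = 0.227 by limma) and Eif2ak2, the RNA-activated kinase PKR that halts translation, at -0.22 log2 (adjusted p = 0.439). Oasl2, of the oligoadenylate synthetase family, had 0.40 on 492B4, 0.52 on 178B5 and -0.40 on ES, against -0.49 log2 on MEF (0.66 log2, adjusted p = 0.317). The ES array lay beside MEF for Oasl2 and both iPS lines above. Over all 21 genes of the set that were not called, 11 had all 3 lines below MEF, 7 had them above and 3 were mixed, with differences between -2.22 and 0.99 log2.

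The fit with iPS and ES as separate groups gave each its own difference from MEF. Both use the same MEF array, and the gene's own spread comes from the 2 iPS lines alone. For iPS minus MEF 16 genes were lower and 3 higher, beside 11.2% and 9.94% of all genes (21.1% together), and for ES minus MEF 16 were lower and 2 higher, beside 10.9% and 9.14% of all genes (20% together). With reference gene centring the whole table gave 1490 higher and 2980 lower for iPS (1981 and 2235 as deposited) and 1536 higher and 2778 lower for ES (1823 and 2167 as deposited). Ifit1 (adjusted p = 0.00879 by limma) and Bst2 (0.0147) were called for iPS, and Tlr3 (-1.25 log2, adjusted p = 0.0143) for ES. The fit without ES is this same iPS minus MEF comparison, so its calls of Ifit1 and Bst2 are the same result. Whether Ifit1, Bst2 and Tlr3 differ between iPS and ES is the next comparison.

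The comparison of iPS with ES asked whether reprogrammed lines and an embryo-derived line differ in this set. None of the 38 genes was called in limma's test, nor any of the 19938 (0%), and at an unadjusted p under 0.05 there were 7 of the 38 genes (18.4%) beside 15.4% of all genes. Over all genes, equal array medians gave 44 calls and reference gene centring gave 207, and in both settings 0 of the 38 genes were called. The largest of the 7 differences was in Oasl2, 0.86 log2 higher in iPS (95% interval 0.45 to 1.27, adjusted p = 0.166). Isg20 (0.58 log2, interval 0.20 to 0.96), Tlr3 (0.47 log2, 0.08 to 0.86) and Ifi35 (0.44 log2, 0.05 to 0.83) were also higher in iPS. Ifit1 (-0.66 log2, -1.11 to -0.20), Ifngr2 (-0.65 log2, -1.27 to -0.03) and Ifit2 (-0.39 log2, -0.79 to -0.00) were lower in iPS. Adjusted p ranged from 0.166 to 0.323 over these 7 genes. Bst2 was not among them, at 0.25 log2 in iPS minus ES (95% interval -0.20 to 0.70).

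Both iPS lines were below ES for 13 of the 38 genes and above it for 15, beside 47.7% and 31.0% of all genes. Both were 1 log2 or more above ES for 0 of the 38 and 1 log2 or more below for 0, beside 0.958% and 1.09% of all genes. Fibroblast markers moved with this comparison: 23 of 26 were lower in both iPS lines than in ES, with medians of -1.66 log2 for 492B4 minus ES and -1.38 log2 for 178B5 minus ES. Sting1 stood at -1.15 log2 on 492B4 and -0.52 log2 on 178B5, relative to ES. Sting1, the Ifit genes, Ifngr2, Tlr4, Myd88 and others had the same order of iPS, ES and MEF as these markers. Isg20, Ifi35, Tlr3, Ifngr1, Ifnar2, Tlr6 and others did not, with ES lowest. These are examples and not full lists. The part of fibroblast RNA in these differences was not tested.

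Between iPS 492B4 and iPS 178B5, 1 array each, there is no replicate and no test. Differences of 1 log2 or more were found in 2 of the 38 genes, Trim12a and Irgm1, beside 0.612% of all genes, and 32 of the 38 (84.2%) differed by less than 0.5 log2, beside 93.0% of all genes. The median difference, 492B4 minus 178B5, was -0.08 log2 in the set and -0.02 log2 over all genes. Trim12a, a mouse relative of the antiretroviral factor TRIM5, had -0.93 on 492B4 and 1.56 on 178B5, with -0.22 on ES and 0.22 log2 on MEF. Relative to the other arrays 178B5 was the high one and 492B4 the low one, 2.49 log2 apart. Trim12a belongs to a cluster of similar genes, so it cannot be told here which copies its probe set reads.

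Irgm1, a GTPase that interferon gamma induces against intracellular bacteria, had -1.32 on 492B4 and 0.62 on 178B5, with -0.62 on ES and 1.78 log2 on MEF. The 4 arrays were all apart, MEF highest and 492B4 lowest, and 178B5 was 3.85-fold higher than 492B4. With its lines spread over 1.94 log2, its mean difference from MEF of -2.22 log2 (SD 0.98) was not called (adjusted p = 0.116 by limma). It was called without 178B5 (-2.75 log2, adjusted p = 0.0456) and over only the genes above the median range (adjusted p = 0.0453). Next in size, Stat2 was 0.72 log2 and Irf8 0.66 log2 higher on 492B4, and Sting1 was 0.63 log2 lower on it. Stat2 and Irf8 had their highest value on 492B4 of all 4 arrays.

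**Figure D4:**
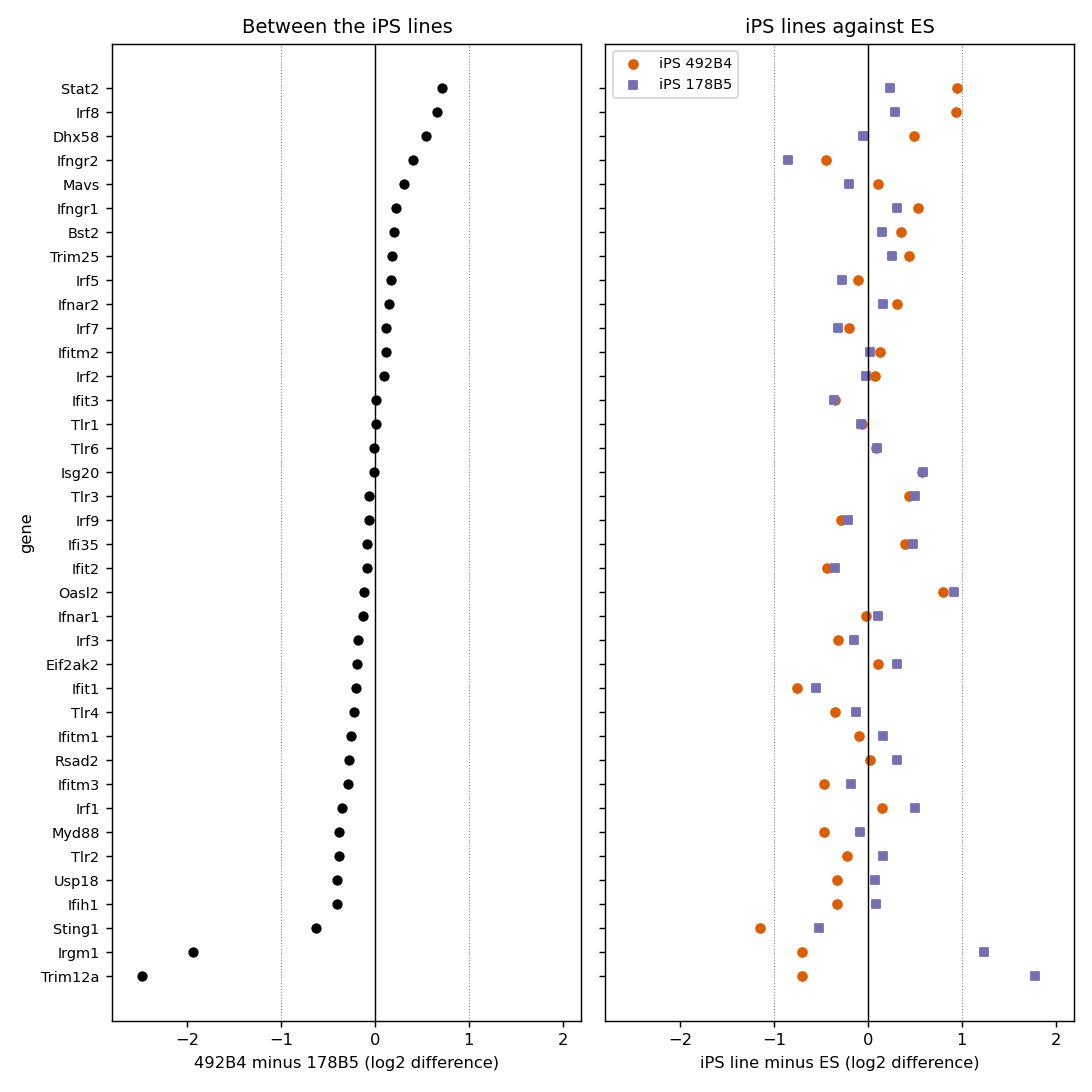
Left, the log2 difference of iPS 492B4 minus iPS 178B5 for each of the 38 genes, in rising order. Right, each iPS line minus ES for the same genes (circles 492B4, squares 178B5), with dotted lines at 1 log2; Trim12a and Irgm1 lie past -1 on the left, and on the right their 2 lines fall on opposite sides of ES.

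Other genes of the pathway were taken from lists that do not overlap with the 38 genes, 145 genes of which 124 were measured. Of these 13 fell and 5 rose against MEF, 10.5% and 4.03%, beside 9.71% and 7.9% of all genes, with a median of -0.21 log2. The share called was thus near that of the whole table. Of 10 measured interferon genes themselves 0 were called by limma, beside 17.6% of all genes. At an unadjusted p under 0.05 there were 0 as well, beside 7529 of all 19938 genes. Their differences lay between -0.35 and -0.02 log2, with Ifnb1 at -0.06 log2 and Ifng at -0.32 log2. Whether these genes were expressed on any array cannot be read from centred values. Of 11 signal transducers 3 fell and 0 rose, 27.3% lower beside 9.71% of all genes. Those called were the kinases Jak1 (-1.60 log2, adjusted p = 0.0105 by limma) and Jak2 (-1.47 log2, adjusted p = 0.0207) and the receptor chain Il10rb. Jak1 had 0.13 on 492B4, -0.19 on 178B5 and -0.13 on ES, against 1.54 log2 on MEF, so it was high on MEF like the receptor chains that it serves.

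Of 29 further sensors and adaptors 4 fell and 1 rose, 17.2% together, near the 17.6% of all genes. Ly96, the partner of Tlr4 in binding lipopolysaccharide, had -1.40 on 492B4, -0.18 on 178B5 and 0.18 on ES, against 2.35 log2 on MEF (-2.82 log2, adjusted p = 0.0458 by limma). Ticam1, the adaptor of Tlr3, fell by 1.69 log2 (adjusted p = 0.0199) and the kinase gene Ikbke by 1.64 log2 (adjusted p = 0.0174). Aim2, a sensor of cytosolic DNA, rose by 2.80 log2 (SD 0.31, adjusted p = 0.00792), with 0.33 on 492B4, -0.24 on 178B5 and 0.24 on ES, against -2.69 log2 on MEF. The DNA pathway genes Aim2 and Sting1 thus stood on opposite sides of MEF. Of 12 NF-kappaB genes Rela, which codes for the p65 subunit, was the 1 called (-1.44 log2, adjusted p = 0.0222), 8.33% beside 17.6% of all genes. Of the 12 genes 10 were below MEF on all 3 lines, beside 47.7% of all genes.

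Of 62 other interferon-induced genes 5 fell and 4 rose, 14.5% together, beside 17.6% of all genes, with a median of -0.14 log2. Ifi27 fell by 2.66 log2 and Trim56 by 1.60 log2, while Phf11d rose by 2.63 log2 (SD 0.40) and Mov10, an RNA helicase that restrains retroelements, by 1.21 log2. The classical induced genes Mx1 (-0.06 log2, adjusted p = 0.784), Mx2 (-0.50 log2, 0.112) and Oas2 (0.42 log2, 0.138), chosen for mention after their values were seen, were not called by limma. Between the iPS lines, 2 of the 124 genes (1.61%) differed by 1 log2 or more, beside 0.612% of all genes. These were Ly96 (-1.22 log2) and Rtp4 (-1.17 log2), Rtp4 also picked after its value was seen. Like Trim12a and Irgm1 both were lower on 492B4, as were 69.4% of the 124 genes and 53.1% of all genes.

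**Figure D5:**
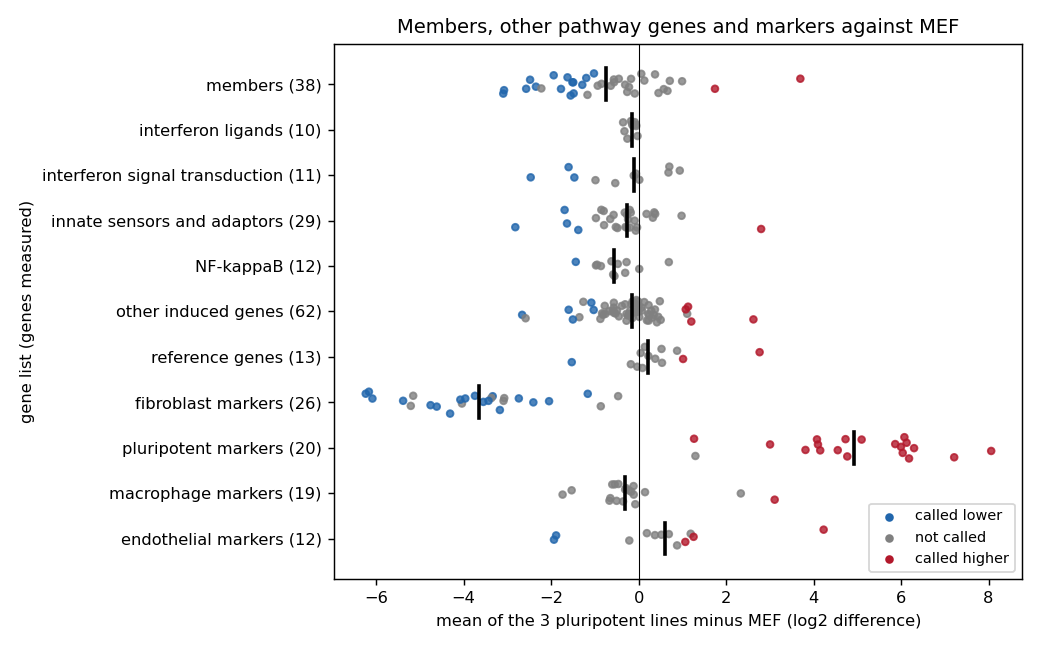
Mean of the 3 pluripotent lines minus MEF (log2) for each gene (points) of the 38 genes, of the other pathway lists, of the reference genes and of the cell type markers; black bars are medians and colours give the call. The set's median lies at -0.74 log2, the pathway lists' medians between -0.57 and -0.11 log2, and the fibroblast markers' at -3.65 log2.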

How the data were processed

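Values were deposited by the authors as 1 table of 28853 probe sets on 4 arrays, on a log scale whose base is unstated and was read as log2. Per the submitters' processing notes they came from GCRMA, which corrects background, normalizes and summarises probes, with its version not given in the sources used here. Every one of the 28853 probe sets had a median of 0 across the arrays (tolerance 1e-06), so the table was centred and holds no level or background. The platform annotation gave 1 symbol to 21789 probe sets, several to 1621 and none to 5443; 21698 matched the GRCm38.p6 gene table by gene ID and 0 symbols changed. Probe sets were averaged per gene, and 18939 of 19938 genes had 1.

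limma 3.58.1 in R 4.3.3 fitted the 3 lines against MEF (2 residual degrees of freedom) and iPS, ES and MEF as 3 groups (1 residual degree of freedom), with Benjamini-Hochberg adjustment over all genes. Lone arrays were assumed to vary like the lines. Separate lines stood as replicates, so a p-value covers their spread, which limma moderated with the spread of all genes. The prior degrees of freedom were 2.39 in the fit of 2 groups and 3.00 in that of 3 groups. The spread of the lines may be technical, and the number of arrays limits precision. Tested on simulated data, the fit missed small changes and found most large ones, so a gene not called is not shown to be unchanged. The simulation changed far fewer genes than were called here and gave MEF the spread of the lines. What it found and missed need not hold for these data. Alternatives changed scaling, the choice of probe set, moderation, the filter and the lines included. The members and lists were chosen with earlier results of these data known. All members were accounted for; those called, those 1 log2 apart between iPS lines or from ES, and the receptors are given by array. Pathway genes were named if called, at most 4 per list, with the interferon ligands named whether called or not and other exceptions stated.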

Additional observations from a re-analysis of the deposited data

How the results depend on the processing

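The count of the set's genes called against MEF was 17 of 38 as reported, beside 17.6% of all genes. It was 16 to 20 over the alternatives of scaling, probe set, moderation, filter and fold minimum. These counts have different bases. The 16 was of the 35 genes with 1 probe set. Over only the genes above the median range it was 19 of 31, beside 39.5% of all genes above that range. With no fold minimum it was 19 of 38, beside 23.8% of all genes, and with reference gene centring 20 of 38, beside 19.6%. With 1 line left out the count ranged from 7 (without iPS 178B5) to 19 (without ES), beside 6.81% and 21.1% of all genes. The fit without ES is the iPS minus MEF comparison itself, so its count is not a separate result. For iPS minus MEF the count was 19, with 18 to 24 over its alternatives. For ES minus MEF it was 18, with 17 (of the 35 genes with 1 probe set) to 19. The 24 came with no fold minimum (63.2% of the set), where the calls over all genes also went up, to 6627 (33.2%) against 4216 (21.1%) with the minimum; for ES minus MEF they were 5249 (26.3%) without it and 3990 with it. Leaving out ES gave the same count of 19 for iPS minus MEF, since in that fit the gene's own spread comes from the iPS lines alone. The iPS minus ES count was 0 and the count between the iPS lines was 2 under every alternative run for them. Of the 15 falls and 2 rises, 0 changed direction, and the calls lost are given beside each gene. No paired analysis was possible because the labels give no replicate numbers that groups share. Signal over background cannot be read from centred values.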
